A study of Caenorhabditis elegans with 80 samples.

Results

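The genes described here are a part of the nuclear genes for the mitochondrial respiratory chain in Caenorhabditis elegans. They encode subunits of the chain and of ATP synthase, cytochrome c, and assembly factors of complex IV. They were taken by symbol, as every probe whose gene name begins with nuo-, sdha-, sdhb-, sdhd-, ucr-, cyc-, cox-, atp-, asb- or asg-, together with gas-1, isp-1, mev-1 and lpd-5. This gave 41 probes for 41 genes among the 23232 probes and 16367 named genes of the array, of which 6 belong to complex I, 5 to complex II, 6 to complex III, 2 to cytochrome c, 7 to the structural part of complex IV, 6 to its assembly and 9 to ATP synthase. Another 28 probes for complex I subunits and factors have other symbols and are not among these members. The annotation of assembly WBcel235 holds all 41 genes and places 13 on chromosome I, 5 on II, 9 on III, 5 on IV, 4 on V and 5 on X.

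The strains were recombinant inbred lines (RILs) of a cross between N2 (Bristol) and CB4856 (Hawaii), and the labels name no treatment other than the growth temperature. Whole larvae labelled L3, fed Escherichia coli OP50, were collected after 72 h at 16 °C or 40 h at 24 °C from 4 dishes per RIL and temperature. Each array compared the RNA of 2 genetically distant RILs, labelled with Cy3 and Cy5, on 40 arrays per temperature, and 39 strain pairs were labelled alike at both. The value per probe and array is therefore a log ratio of 2 strains, read here as log2, and neither the dye in its numerator nor the parental allele it favours is known. The ratios hold no expression level, so that no change of a gene between the temperatures and no level of a tissue marker could be computed. In whole larvae, fewer cells of a type and less RNA per cell cannot be told apart.

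The median absolute ratio of all probes was 0.59 in each 16 °C array and 0.66 in each 24 °C array. This value was thus common to all arrays of a temperature and differed between the temperatures. Comparisons of spread between the temperatures hold that difference. Precision is limited by how many arrays there are, since signal over background is not in the table. With 78 strains labelled at 16 °C and 77 at 24 °C, a few strains recur, and they make 5 of the 39 pairs not fully independent. Nothing in the labels repeats a strain pair within a temperature, so each p-value measures the spread between strain pairs, in which biological and technical differences cannot be told apart.

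Complex I (NADH dehydrogenase) and complex II (succinate dehydrogenase) pass electrons to ubiquinone, complex III passes them to cytochrome c and complex IV (cytochrome c oxidase) to oxygen. The protons pumped on the way drive ATP synthase, also called complex V. In C. elegans, mutants of gas-1 and mev-1 are sensitive to oxidative stress and short-lived, whereas mutants of isp-1 and nuo-6 develop slowly and live long, and several subunits have a second gene copy with its own tissue pattern.

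The strain pairs differed little in these genes. The SD of the ratio over the arrays had a median over the 41 genes of 0.54 at 16 °C and 0.55 at 24 °C, against 1.05 and 1.11 over all probes. The SD was below the median of all probes for 39 members at 16 °C and 38 at 24 °C, and below percentile 5 of all probes (0.54 and 0.58) for 21 and 23. The brightness of the probes is not in the table, and its part in the small SD was not tested.

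**Figure D1:**
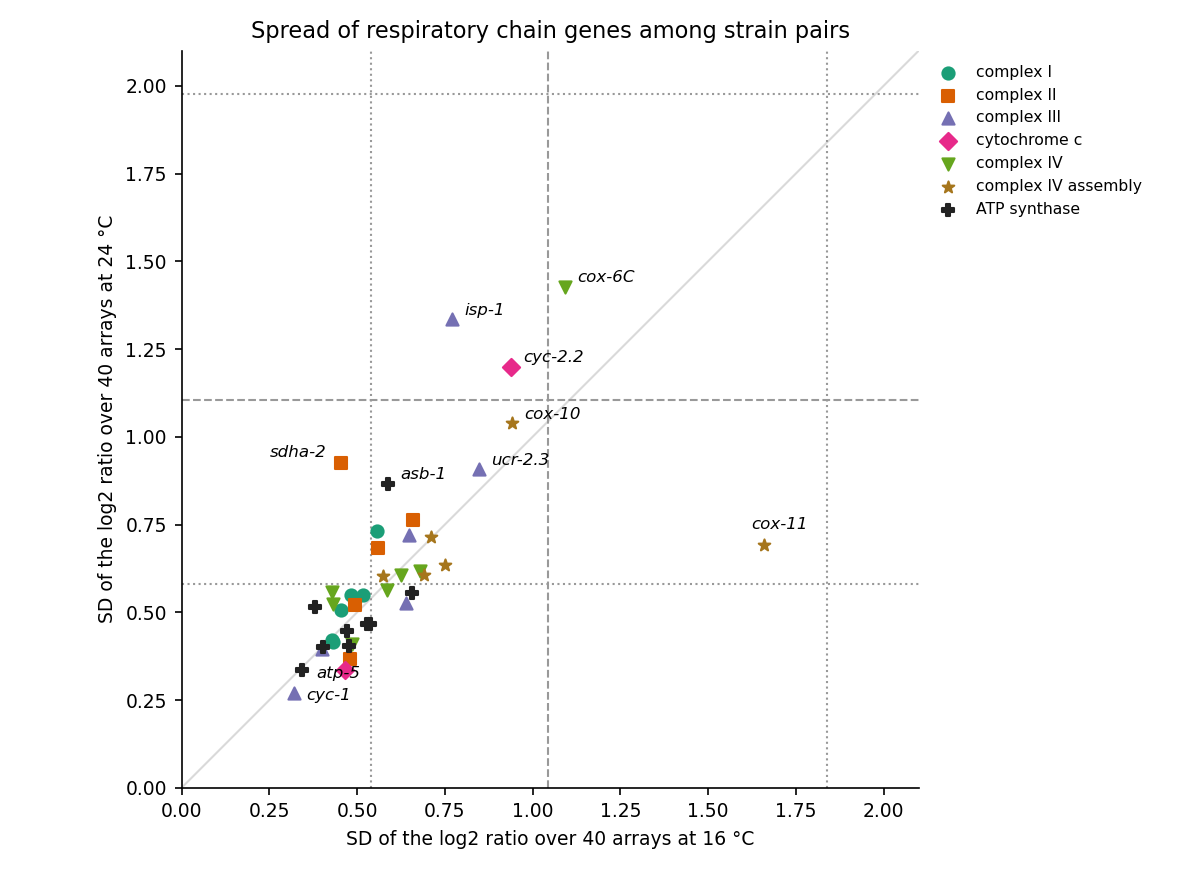
SD of the log2 ratio over 40 arrays at 16 °C (x axis) and at 24 °C (y axis) for the 41 genes, by complex. Dashed lines mark the median SD of all 23232 probes and dotted lines their percentiles 5 and 95. Most genes crowd near the lower dotted lines, cox-11 lies far to the right (SD 1.66 at 16 °C and 0.69 at 24 °C), and sdha-2 and isp-1 lie above the diagonal.

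Among the members that varied least were cyc-1 and atp-5. For cyc-1, which encodes cytochrome c1 of complex III, the ratios had a lowest, median and highest value of -1.12, -0.11 and 0.45 at 16 °C, while at 24 °C they were -0.54, 0.04 and 0.50. Its SD of 0.32 and 0.27 was the lowest among the members at both temperatures, and only 0.0258% and 0.0043% of all probes had a smaller one. The ratios of atp-5, a subunit of the stalk of ATP synthase, stayed between -0.68 and 0.98 at 16 °C and between -0.54 and 0.93 at 24 °C, with SDs of 0.34 and 0.34. Thus no strain pair reached a difference of 1 on the log2 scale in atp-5 at either temperature.

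Of the members best known from mutants, 3 also had small SDs. For gas-1, a core subunit of complex I, the ratios had a lowest, median and highest value of -1.26, 0.05 and 1.48 at 16 °C, against -0.93, -0.09 and 1.18 at 24 °C (SD 0.43 and 0.42). For mev-1, the cytochrome b subunit that anchors complex II, they ran from -1.31 through -0.09 to 0.90 and from -0.94 through -0.15 to 1.11 (SD 0.49 and 0.52). For atp-2, the catalytic beta subunit of ATP synthase, they ran from -0.78 through 0.22 to 1.28 and from -0.89 through 0.30 to 1.29 (SD 0.47 and 0.45). The ranges of the 2 temperatures overlapped almost fully in all 3 genes. A larger SD was that of isp-1, the Rieske iron-sulphur protein of complex III, with 0.77 at 16 °C and 1.33 at 24 °C.

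By median SD, ATP synthase (0.48 at 16 °C and 0.47 at 24 °C, 9 genes) and complex I (0.47 and 0.53, 6 genes) were lowest, whereas the assembly factors of complex IV had 0.73 and 0.66 (6 genes) and the structural subunits of complex IV 0.59 and 0.56 (7 genes). Complex II had 0.49 and 0.68 (5 genes), complex III 0.64 and 0.62 (6 genes) and cytochrome c 0.70 and 0.77 (2 genes). The 28 probes for other complex I subunits and factors, which the symbol rule left out, had 0.56 and 0.59. The low rank of complex I is thus that of its 6 members only. These medians were not tested against each other. The largest SDs at 16 °C belonged to cox-11 (1.66), cox-6C (1.09) and cox-10 (0.94), and at 24 °C to cox-6C (1.43), isp-1 (1.33) and cyc-2.2 (1.20). cox-6C encodes a small subunit of complex IV, cox-11 a copper chaperone of its assembly and cox-10 the enzyme that makes heme O for it. The highest ratios of cox-6C lay in different strain pairs at the 2 temperatures. Its highest ratio was 4.90 at 16 °C, on the array of WN54/WN6, where the 24 °C ratio was 0.60. At 24 °C the highest ratio of cox-6C was 5.48, in WN17/WN33, where the ratio at 16 °C was 0.55.

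To ask whether strain differences carried over from one temperature to the other, the ratios were correlated across the 39 pairs, and the p-value of r was adjusted over all 23232 probes (Benjamini-Hochberg). None of the 41 members had a positive r past the adjusted p of 0.05, a call that 1.04% of all probes reached, and 1 member, nuo-1, had a negative one, as did 0.0258% of all probes. For so short a list, 0 calls lies close to that background. Over the members r had a median of 0.0066 and was positive in 22, against a median of 0.0320 over all probes, and 2 members (4.88%) had an unadjusted p below 0.05, against 7.70% of all probes. The highest r belonged to atp-3, the OSCP subunit that joins the head of ATP synthase to its stator (r = 0.314), to nuo-2 of complex I (r = 0.234) and to cox-10 (r = 0.199). The lowest were those of nuo-1 (r = -0.617), of cox-18, which in yeast inserts a core subunit of complex IV into the membrane (r = -0.359), and of nuo-6, a small subunit of complex I (r = -0.243). With adjusted p-values of 0.513 for cox-18, 0.827 for nuo-6 and 0.655 for atp-3, only nuo-1 passed.

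The value of nuo-1, which encodes the NADH-binding flavoprotein of complex I, rested on 1 strain pair. In WN5/WN25 its ratio was 2.03 at 16 °C and -1.85 at 24 °C, whereas the other 38 pairs lay between -0.75 and 0.39 at 16 °C and between -0.30 and 0.67 at 24 °C. With this pair r was -0.617 (adjusted p = 0.00486), and without it r was -0.0167 (adjusted p = 0.996). Spearman's rho over all 39 pairs was -0.136 (permutation p = 0.410, two-sided), beside a permutation p of 0.0125 for r, and without the 2 pairs farthest from the median r was -0.0338. The sign of the ratio was opposite at the 2 temperatures in 24 pairs and the same in 15.

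**Figure D2:**
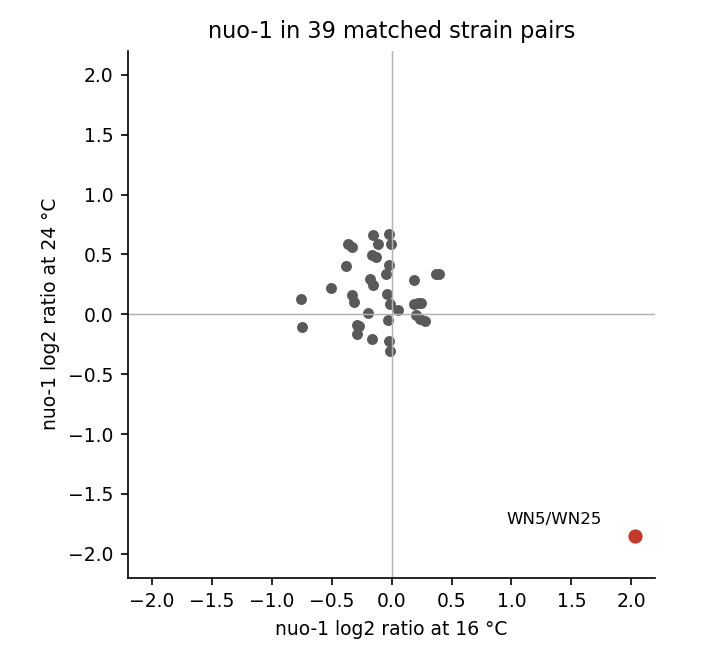
log2 ratio of nuo-1 at 16 °C (x axis) and at 24 °C (y axis) in each of the 39 matched strain pairs. WN5/WN25 (2.03 and -1.85) lies alone in the lower right corner, and the other 38 pairs form a cloud around 0 (r = -0.0167).

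The same strain pair also gave the highest or lowest ratio of several other members. At 16 °C the ratios of WN5/WN25 were 1.68 for cox-4, 1.48 for gas-1 and 1.40 for sdhd-1, the highest of all 40 arrays in each. At 24 °C the same genes had -0.44, -0.93 and 0.13. At 24 °C the ratios of the pair were furthest below 0 in cox-5B (-2.58), sdha-2 (-2.36), asb-1 (-2.19) and lpd-5 (-1.997), which encode subunits of complexes IV, II, V and I, and these were the lowest of all 40 arrays in each of the 4 genes. Other members went the opposite way in this pair. Its ratios of ucr-11 (-1.63) and cox-19 (-0.77) were the lowest of all arrays at 16 °C, and that of atp-2 (1.29) was the highest at 24 °C. The strain pair was chosen for description after its values were seen.

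Whether the strain pairs differed more at one temperature than at the other was tested with the Pitman-Morgan test over the 39 pairs, adjusted over all probes. A larger spread at 24 °C was found for 2 members, sdha-2 and isp-1, against 6.12% of all probes, and a larger spread at 16 °C for 1, cox-11, against 3.0% of all probes, shares near the background in both directions. Dividing each temperature by its median SD left the same members called. Over all probes it gave 850 with more spread at 24 °C and 932 with more at 16 °C, against 1421 and 698 without it. Each array held RNA of 1 temperature only, so temperature and differences between the sets of arrays cannot be told apart in these values.

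For cox-11 the ratios had a lowest, median and highest value of -1.68, 0.42 and 7.25 at 16 °C, and the 24 °C arrays gave -1.34, -0.18 and 1.78. The highest values at 16 °C were 7.25 in WN3/WN22, 5.22 in WN45/WN12 and 3.24 in WN70/WN48, all above any value at 24 °C. Over the 39 pairs the SD fell from 1.64 at 16 °C to 0.69 at 24 °C (adjusted p = 0.000102), a call that held without any single pair. The interquartile ranges, which leave out such extremes, differed less, with 1.27 and 0.96.

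For sdha-2, a second gene for the flavoprotein of complex II, the ratios had a lowest, median and highest value of -0.83, -0.02 and 1.29 at 16 °C, while at 24 °C they were -2.36, 0.02 and 1.57. Here the whole distribution widened, with an interquartile range of 0.58 at 16 °C and 1.03 at 24 °C, and 12 arrays lay more than 1 from 0 at 24 °C against 1 at 16 °C. The SD over the pairs was 0.44 and 0.94 (adjusted p = 0.000611), and the call held without any single pair. Its counterpart sdha-1 had SDs of 0.66 and 0.77 (adjusted p = 0.633), and whether the 2 genes differed in this was not tested.

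For isp-1 the ratios had a lowest, median and highest value of -3.10, 0.08 and 2.24 at 16 °C, against -1.46, 0.98 and 4.68 at 24 °C. At 16 °C 3 arrays lay more than 1 from 0, and at 24 °C 23 did, with the highest values of 4.68 in WN16/WN34 and 4.01 in WN8/WN41. With a median near 1 at 24 °C, this count follows the shifted centre as well as the spread. The interquartile range was 0.647 at 16 °C and 0.974 at 24 °C. The SD over the pairs was 0.78 and 1.35 (Pitman-Morgan r = 0.506, adjusted p = 0.0197). The call was lost without WN16/WN34 (r = 0.418, adjusted p = 0.0780), without WN8/WN41 (r = 0.451, adjusted p = 0.0512) and with the arrays scaled (r = 0.421, adjusted p = 0.0737), while the sign stayed. The members next in line, asb-1 with 1.46 times the SD at 24 °C (adjusted p = 0.133) and sdhd-1 with 0.766 times (adjusted p = 0.326), did not pass. None of cox-11, sdha-2 and isp-1 passed when ratios were replaced by ranks over both temperatures, where no probe of the array did (adjusted p = 0.9998 for each).

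**Figure D3:**
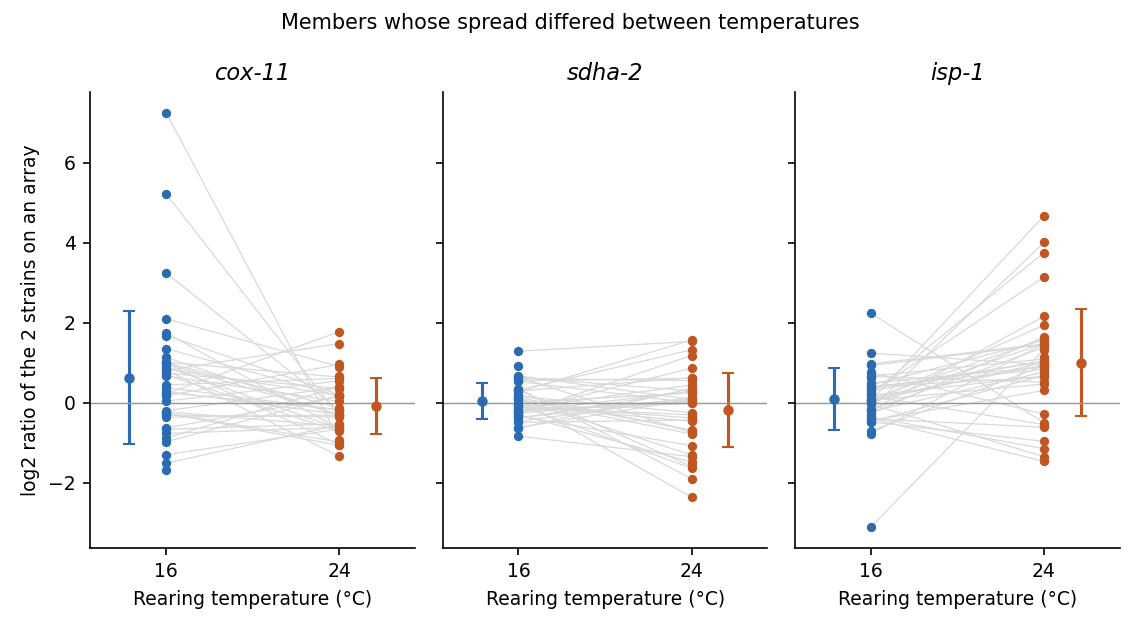
log2 ratio (y axis) of cox-11, sdha-2 and isp-1 on each array at 16 °C and 24 °C (x axis), with grey lines joining the arrays of 1 strain pair and the mean ± SD over 40 arrays beside the points. The points of cox-11 reach 7.25 at 16 °C only, those of sdha-2 fan out at 24 °C, and those of isp-1 are centred near 1 at 24 °C.

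The mean ratio of a probe over the arrays of 1 temperature was compared with 0 (limma, adjusted over all probes). Only WN38, WN80 and, at 24 °C, WN65 were on both dyes, so in a mean off 0 an effect of the probe or dye and a difference between the strains on Cy3 and those on Cy5 cannot be told apart. At 16 °C 1 member had a positive mean, ucr-2.2 (0.37 ± 0.11 SE, n = 40, limma adjusted p = 0.0335), against 2.45% of all probes, and none a negative one, against 2.7%. At 24 °C 6 members had a positive mean, against 7.88% of all probes, and none a negative one, against 6.5%. These were isp-1 (1.01 ± 0.21 SE), cox-6C (0.80 ± 0.22), cox-19 (0.52 ± 0.11), ucr-2.2 (0.36 ± 0.12), atp-2 (0.32 ± 0.08) and nuo-6 (0.28 ± 0.10). cox-19 encodes a copper chaperone of complex IV assembly, and ucr-2.2 a core protein of complex III. The mean of isp-1 at 16 °C was 0.09, and whether it differed between the temperatures was not tested.

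To ask whether the members followed developmental timing or tissue, the ratios were compared with scores built from marker genes of the same array. The sperm score is the mean ratio of 18 probes of major sperm protein (msp-) genes, which are switched on as sperm begin to form. Its lowest and highest values were -2.08 and 1.33 at 16 °C, against -1.92 and 4.02 at 24 °C, and across the 39 pairs its values at the 2 temperatures had r = 0.0385. The slope of each ratio on the score was tested with limma and adjusted over the 23214 probes outside the score. At 16 °C 1 member rose with the sperm score, against 2.37% of all probes, and at 24 °C 3 did, against 5.35%, so that the number of members called lay near the background. None fell with it, against 0.164% and 1.85%.

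The member that rose at both temperatures was cyc-2.2, 1 of the 2 genes for cytochrome c. Its ratios had a lowest, median and highest value of -1.93, 0.25 and 1.80 at 16 °C, and the 24 °C arrays gave -2.67, -0.05 and 4.14. The lowest ratio at each temperature came from the array with the lowest sperm score, WN17/WN33 at 16 °C and WN9/WN62 at 24 °C, and the highest ratio from the array with the highest score, WN43/WN40 and WN76/WN59. At 16 °C r was 0.747 (permutation p = 1.0e-05, the smallest that 100000 resamples can give) and rho was 0.642 (permutation p = 3.0e-05). At 24 °C r reached 0.8505 and rho 0.702, each with the smallest permutation p (1.0e-05). The members given a permutation p with a score were mostly chosen because they had passed limma or ranked highest, so that p is no independent support. Without the 2 arrays farthest from the median score, r was 0.657 and 0.715, and the limma call (adjusted p = 1.87e-05 at 16 °C and 2.46e-09 at 24 °C) held without any single array. The r of cyc-2.2 ranked 59 at 16 °C and 57 at 24 °C among the 23214 probes.

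The other cytochrome c gene, cyc-2.1, was not called. Its r with the sperm score was -0.353 at 16 °C (limma adjusted p = 0.502), and at 24 °C it was -0.135 (limma adjusted p = 0.836). Its ratios were also narrower, from -0.51 through 0.09 to 1.42 at 16 °C and from -0.90 through 0.15 to 0.53 at 24 °C. The ratio of cyc-2.2 less that of cyc-2.1 had r = 0.709 (rho = 0.592) and r = 0.822 (rho = 0.688) with the score. Such differences between paralogues were formed after the values of the single genes were seen, so they are given as a description, with no test. At 16 °C the 2 cytochrome c genes ran against each other (r = -0.451, rho = -0.414), which was the only relation past the threshold among the 10 between paralogues (permutation p = 0.00325, adjusted p = 0.0325). It kept its sign without the 2 arrays farthest from the median (r = -0.381) and lost the call without the arrays of recurring strains (r = -0.457, adjusted p = 0.0577). At 24 °C r was -0.161 (adjusted p = 0.791).

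At 24 °C ucr-2.3, a core protein of complex III, and asb-1, the b subunit of ATP synthase known in C. elegans from the germ line, also rose with the sperm score. The ratios of ucr-2.3 ran from -2.71 through 0.27 to 2.68 and those of asb-1 from -2.19 through -0.20 to 2.295. Both were highest in WN76/WN59, which also had by far the highest score. For ucr-2.3 the r of 0.557 had a permutation p of 0.00121, the rho of 0.558 one of 0.00031, and limma an adjusted p of 0.00604. For asb-1 the r of 0.566 had a permutation p of 0.00025, the rho of 0.335 one of 0.0354, and limma an adjusted p of 0.00518. Without WN76/WN59 both lost the limma call (adjusted p = 0.0979 and 0.117), with r = 0.409 and r = 0.398. With ratios and score replaced by ranks, asb-1 also lost the limma call at 24 °C (adjusted p = 0.175). At 16 °C r was -0.0654 for ucr-2.3 and -0.0137 for asb-1. The highest score at 16 °C was 1.33, and the part of the score range in these lower r was not tested. The difference in slope between the temperatures was not past the threshold for any member (limma interaction, adjusted p = 0.619 for ucr-2.3 and 0.5999 for asb-1).

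The paralogues of these genes were not called at 24 °C, with r = 0.0316 for ucr-2.2, r = -0.116 for asb-2 and r = -0.165 for sdha-1. As a description, the ratio of asb-1 less that of asb-2 had r = 0.544 (rho = 0.395) with the score at 24 °C, and 0.446 without WN76/WN59. For sdha-2 less sdha-1 r was 0.427 (rho = 0.450), and 0.443 without that array. On its own sdha-2 did not pass the fit over all probes (r = 0.397, limma adjusted p = 0.111). For ucr-2.3 less ucr-2.2 r was 0.378 (rho = 0.418), and 0.242 without WN76/WN59. At 16 °C these 3 differences had r between -0.170 and 0.111. The difference of asg-1 and asg-2, both for subunit g of ATP synthase, had r = 0.216 at 16 °C and 0.248 at 24 °C. Whether the probes of paralogues also bound each other's RNA was not tested.

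**Figure D4:**
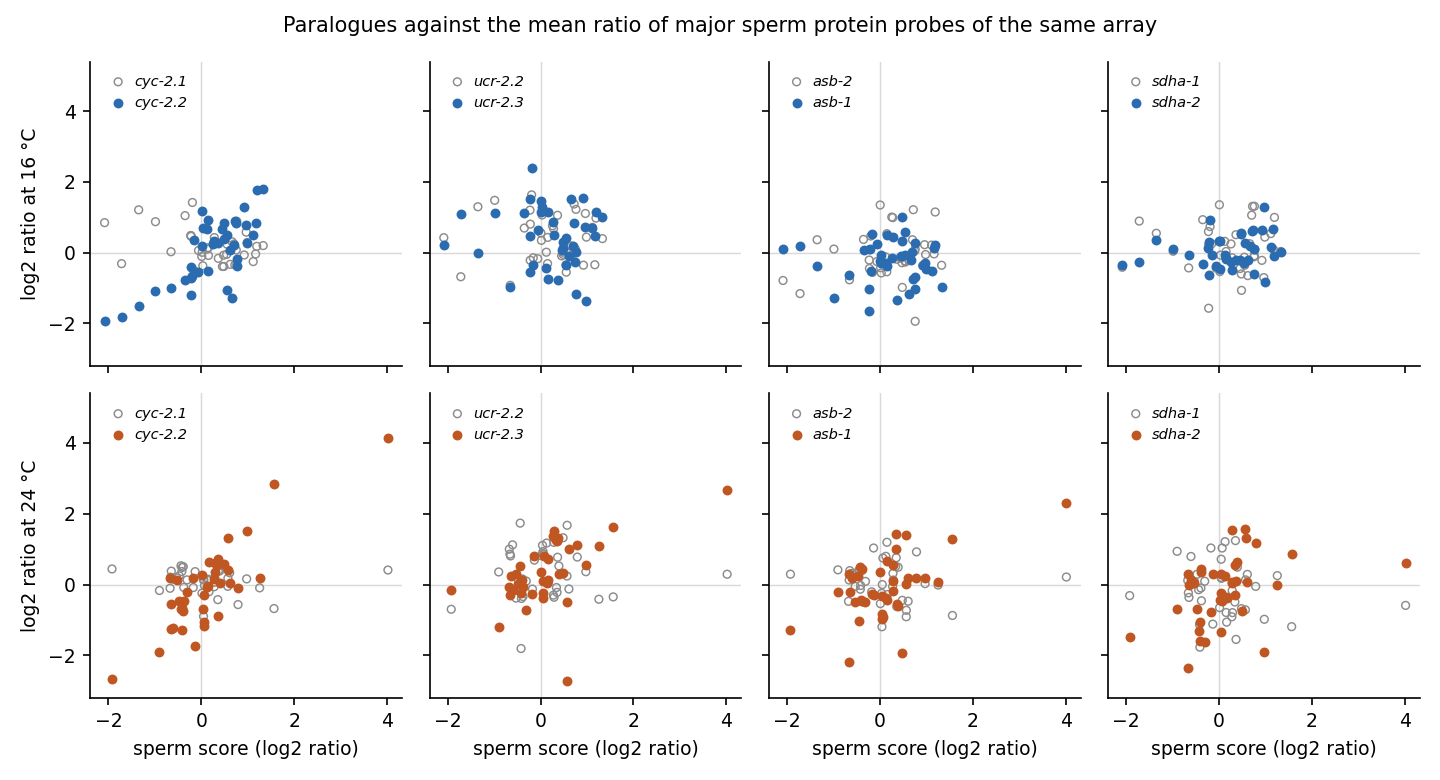
log2 ratio (y axis) of 4 genes (filled points) and their paralogues (open points) against the sperm score of the same array (x axis, mean log2 ratio of 18 msp- probes), on 40 arrays at 16 °C (upper row) and 40 at 24 °C (lower row). cyc-2.2 climbs with the score in both rows (r = 0.747 and 0.8505), ucr-2.3 and asb-1 do so at 24 °C with WN76/WN59 at the far right, and the open points have r between -0.353 and 0.206.

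Other markers moved with the sperm score. The mean ratio of 12 germ line genes correlated with it across the arrays with r = 0.352 at 16 °C and 0.803 at 24 °C, and that of 14 intestine probes, vitellogenins among them, with r = 0.566 and 0.730. Over the arrays at 24 °C the germ line list itself had r = 0.710 with cyc-2.2, 0.595 with ucr-2.3, 0.516 with asb-1 and 0.532 with sdha-2. At 16 °C these were 0.380, 0.444, 0.0066 and 0.321. The part of age within L3, of germ line size and of intestine in these relations was not tested.

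The furrow collagen score, the mean ratio of 5 dpy- genes that are expressed at a set time of each moult cycle, picked out 1 member at 16 °C, against 0.641% of all probes for a positive slope, and none at 24 °C, against 1.25%. No member had a negative slope past the threshold, against 0.301% and 1.11%. The member was cox-15, the heme A synthase needed for complex IV. Its ratios had a lowest, median and highest value of -1.47, 0.08 and 2.13 at 16 °C, while at 24 °C they were -1.57, 0.04 and 1.66. At 16 °C its r of 0.617 and its rho of 0.612 each had a permutation p of 2.0e-05, limma gave an adjusted p of 0.0166, and r was 0.605 without the 2 farthest arrays. The call held without any single array and was lost without the arrays of recurring strains (adjusted p = 0.0656), where r was 0.594. At 24 °C r was 0.392 and rho 0.392 (limma adjusted p = 0.230), and the difference between the temperatures was not past the threshold for any member.

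Muscle holds many mitochondria, and a score of 12 sarcomere genes was compared in the same way. At 16 °C no member passed, against 0.0215% of all probes with a positive slope and 0.0% with a negative one. Without adjustment, 7 members had a p below 0.05 for a positive slope and 3 for a negative one, against 6.69% and 4.05% of all probes. The highest r at 16 °C was that of asb-2, the other b subunit of ATP synthase (r = 0.604, rho = 0.602, limma adjusted p = 0.0895). Its ratios ran from -1.94 through -0.14 to 1.35 at 16 °C, and at 24 °C its r was 0.260. At 24 °C sdha-1 rose with the muscle score, against 1.2% of all probes, and none fell with it, against 0.616%. The ratios of sdha-1, which encodes the main flavoprotein of complex II, had a lowest, median and highest value of -1.57, 0.04 and 1.35 at 16 °C, against -1.77, -0.16 and 1.24 at 24 °C. At 24 °C its r of 0.585 had a permutation p of 5.0e-05 and its rho of 0.578 one of 0.00012, with a limma adjusted p of 0.0260. Without the 2 farthest arrays r was 0.477, and at 16 °C it was 0.482. The call at 24 °C was lost without WN43/WN40 (r = 0.541) or WN45/WN12 (r = 0.5315), the arrays with the highest and the lowest muscle score (adjusted p up to 0.0580), and without the arrays of recurring strains (r = 0.553, adjusted p = 0.126).

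With the muscle score at 16 °C r was positive in 31 of the 41 members, with a median of 0.1645 against 0.0145 over all probes, and 7 had r above 0.3 and 3 below -0.3, against 7.89% and 4.70% of all probes. The r at 24 °C was positive in 22, with a median of 0.0481 against 0.0039. At 24 °C 7 had r above 0.3 with it and 8 had r below -0.3, where over all probes 9.28% and 7.59% did. On the positive side, after sdha-1, were cox-15 (r = 0.457), ucr-1, a core protein of complex III (r = 0.407), and cox-4 (r = 0.398). On the negative side were asg-1 (r = -0.519, rho = -0.479, limma adjusted p = 0.0994), cox-17, another copper chaperone (r = -0.472), nuo-6 (r = -0.461) and cox-19 (r = -0.458). The muscle score had r = 0.395 at 16 °C and 0.333 at 24 °C with the furrow collagen score. Relations of a member to both of these scores, such as those of cox-15, are therefore not separate results.

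No member passed with the ribosomal protein score, the mean ratio of 68 rpl- and rps- probes, at either temperature, against 0.328% of all probes for a positive and 0.233% for a negative slope at 16 °C and 0.0302% and 0.0173% at 24 °C. This score had r = -0.407 with the muscle score at 16 °C and -0.0494 at 24 °C. Relations of members to the 2 scores at 16 °C are therefore not separate results. At 16 °C 9 members had an unadjusted p below 0.05 for a negative slope and 1 for a positive one, against 7.16% and 3.35% of all probes. The lowest r were those of sdha-1 (-0.498), cox-5A (-0.472), gas-1 (-0.434) and asb-2 (-0.432), and the highest that of cox-6A (0.512), both cox- genes being for structural subunits of complex IV. At 24 °C the counts were 2 and 4, against 5.72% and 3.53% of all probes. There sdhb-1, the iron-sulphur subunit of complex II, was highest (r = 0.547) and asb-1 lowest (r = -0.375).

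**Figure D5:**
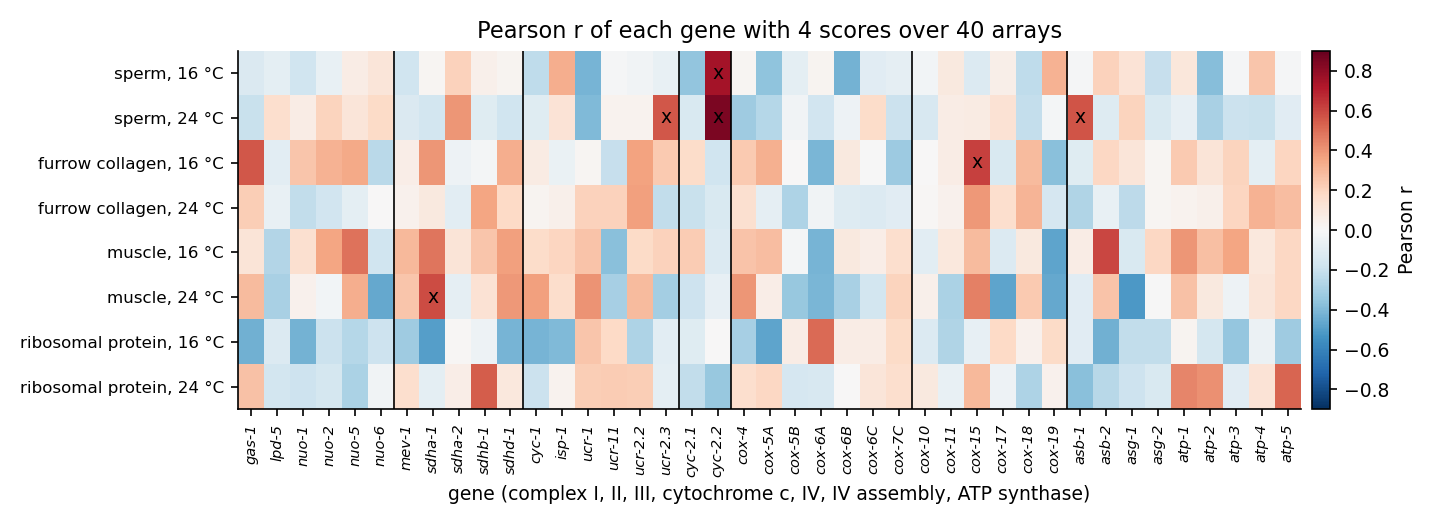
Pearson r (colour) of each of the 41 genes (x axis, ordered by complex with lines between complexes) with 4 scores at 16 °C and 24 °C (y axis) over 40 arrays. Crosses mark a limma adjusted p below 0.05 over all probes, which cyc-2.2 reached for the sperm score at both temperatures, ucr-2.3 and asb-1 at 24 °C, cox-15 for the furrow collagen score at 16 °C and sdha-1 for the muscle score at 24 °C.

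The 41 members moved together only weakly. Over the 820 pairs of members the median r across arrays was 0.0814 at 16 °C and 0.0159 at 24 °C, against 0.0040 and -0.0010 between members and all other probes. Within a complex the median r was 0.143 and 0.0236 (113 pairs), between complexes 0.0730 and 0.0128 (707 pairs). An r above 0.5 was seen in 2.32% and 1.83% of member pairs, against 0.402% and 0.444% of pairs of a member with another probe. These values are descriptive, since all pairs share the same arrays.

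At both temperatures 10 member pairs had an r above 0.4, out of 51 at 16 °C and 43 at 24 °C. A first group joined complex II with complexes I and IV. In it sdhd-1, the small membrane anchor of complex II, went with sdha-1 (r = 0.566 at 16 °C and 0.521 at 24 °C) and with cox-4 (0.499 and 0.525), sdha-1 with nuo-5, the largest iron-sulphur subunit of complex I (0.574 and 0.440), and gas-1 with cox-4 (0.410 and 0.404). A second group held lpd-5 and nuo-6 of complex I (0.579 and 0.436), nuo-6 and asg-1 (0.609 and 0.402), and lpd-5 and ucr-11 (0.465 and 0.413). The remaining pairs were atp-1, the alpha subunit of ATP synthase, with sdhb-1 (0.433 and 0.579), asg-2 with asb-2 (0.535 and 0.421) and ucr-2.2 with cox-15 (0.416 and 0.506). Without WN5/WN25, 7 of the 10 stayed above 0.4 at both temperatures, and those of gas-1 and cox-4 (0.237 at 16 °C), sdhd-1 and cox-4 (0.385) and ucr-2.2 and cox-15 (0.391) did not. At 24 °C cyc-2.2 and asb-1 had r = 0.601, against 0.0665 at 16 °C, and the r of 0.557 between nuo-1 and cox-5B at 24 °C fell to 0.0079 without WN5/WN25.

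Some members followed the median of the other members and some ran against it. At 16 °C r with that median was highest for cyc-2.1 (0.631), asb-2 (0.606) and ucr-2.2 (0.571) and lowest for ucr-11 (-0.378), cox-6A (-0.326) and cox-19 (-0.298). At 24 °C it was highest for nuo-5 (0.393), ucr-2.2 (0.362) and cox-18 (0.361) and lowest for atp-3 (-0.236), ucr-2.3 (-0.228) and cox-7C, a small subunit of complex IV (-0.219). So ucr-2.2 was among the highest 3 at both temperatures, while atp-3 had 0.542 at 16 °C. The named genes outside the list whose ratios were most like the median of all members at both temperatures, by the smaller of the r at 16 °C and 24 °C over 40 arrays each, were aqp-11 (0.471 and 0.496), tufm-1 (0.456 and 0.447), trap-2 (0.461 and 0.442), elb-1 (0.515 and 0.434) and adk-1 (0.429 and 0.545), followed by W08E12.7, snx-1, Y45F10D.7, alh-6 and ufm-1, the last with 0.390 and 0.436.

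On single arrays, the median ratio of the 41 members lay between -0.33 and 0.36 at 16 °C and between -0.24 and 0.27 at 24 °C, and between 7 and 35 members were positive on an array at 16 °C and between 12 and 30 at 24 °C. Across the 39 pairs the member median at 16 °C and at 24 °C had r = 0.120. Within a strain pair, the 41 ratios of the 2 temperatures correlated across genes, which are not independent replicates, with a median r of 0.0277, from -0.502 in WN80/WN7 to 0.465 in WN76/WN59, and positively in 21 of the 39 pairs. Across the members, the 2 arrays that carry WN38 on opposite dyes had r = -0.314 at 16 °C and -0.218 at 24 °C, and those that carry WN80 so had r = -0.342 and -0.0974.

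Other mitochondrial genes on the array also had small SDs. None of the 28 probes for other complex I subunits and factors, 7 for coenzyme Q synthesis, 15 for the TCA cycle, 66 for the mitochondrial ribosome, 13 for protein import, 9 for the mitochondrial stress response and 11 for carriers and regulators was called repeatable in either direction. Over all probes 1.04% were called with a positive r and 0.0258% with a negative one, so for lists this short the absence of calls lies close to that background. The median SD of these lists lay between 0.56 and 0.75 at 16 °C and between 0.54 and 0.85 at 24 °C, below that of all probes in each. A larger spread at 24 °C was called for 3 of the 28 other complex I probes, against 6.12% of all probes, and a larger one at 16 °C for 1, against 3.0%, and in each other list at most 1 probe was called in either direction, among them hsp-6, the mitochondrial Hsp70 of the stress response, at 16 °C. With the muscle score at 24 °C, 5 of the 66 mitochondrial ribosome probes fell and none rose, against 0.616% and 1.2% of all probes. In the other lists 1 of the other complex I probes, 1 of protein import and 1 of carriers and regulators fell, and 1 of carriers and regulators rose.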

How the data were processed

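Total RNA of paired RILs had been hybridised on two-colour oligonucleotide arrays. The deposited values are ratios of the 2 strains that the authors had normalized, 1 for every probe on an array. They were taken as log2, the base limma works in, since the submitters' processing notes name that tool (no version). Normalization steps, log base and orientation of the dyes are not given in the sources used here. Gene names came from the platform annotation (17447 probes with 1 gene and 5785 with none, not named here), updated through WBcel235 for 17358.

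Members and lists were chosen with earlier results of these data known. Pearson's r and the Pitman-Morgan test used the 39 matched pairs, limma's moderated tests all arrays of 1 temperature, and Benjamini-Hochberg adjustment ran over all probes tested, with a threshold of 0.05. Permutation tests of single relations were two-sided, with 100000 resamples. A trimmed r leaves out the 2 arrays farthest from the median on the x axis. Genes named are members past a test, the 3 highest and lowest by r, SD, ratio of SDs and r with the other members, paralogue pairs, nuo-1, gas-1, isp-1, mev-1 and atp-2, and the 10 other genes most like the member median. Others were chosen after their values were seen.

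Alternatives were scaling, ranks, division of each temperature by its median SD, removal of the first 2 principal components, other forms of the scores, a threshold of 0.01, platform symbols, and leaving out recurring strains, WN3/WN22 or each pair or array. The interaction fits, the paralogue differences, the arrays left out singly in the score fits and the values without WN5/WN25 were added after seeing the data. Scripts were tested on simulated data. Python 3.11.15, numpy 2.4.6, scipy 1.17.1, pandas 2.3.3, R 4.3.3 and limma 3.58.1 were used. Genes nuo-3, nuo-4, ucr-2.1, cox-14 and cox-16 were not analysed here.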

Additional observations from a re-analysis of the deposited data

Results flagged for a closer look

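In 3 genes the spread over the strain pairs differed between the temperatures by the test of that difference. The SD at 24 °C over that at 16 °C was 0.4208 for cox-11, 2.145 for sdha-2 and 1.745 for isp-1 (Pitman-Morgan test over 39 pairs, adjusted p over all probes = 0.000102, 0.000611 and 0.0197). For isp-1 the Pitman-Morgan r of 0.506 became 0.418 without WN16/WN34 (adjusted p = 0.0780) and 0.451 without WN8/WN41 (adjusted p = 0.0512), and for cox-11 and sdha-2 the call held without any single pair. With arrays scaled, isp-1 lost the call (Pitman-Morgan adjusted p = 0.0737). With ranks all 3 lost it (adjusted p = 0.9998 for each), where no probe of the array passed. For cox-11 the interquartile ranges of 1.265 at 16 °C and 0.955 at 24 °C differed less than the SDs, and leaving out 1 pair at a time keeps the other high arrays.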

How the results depend on the processing

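Over all alternatives 379 counts of members stayed within 1.5 times the reported one and 27 did not, and of the values of single members 604 kept direction and side of the threshold, 22 lost the call, 1 gained it and 4 changed sign. Most of these alternatives left out only 1 pair or array and shared nearly all data with the reported fit. The totals are therefore no measure of how far the other choices matter. With ranks, no member was repeatable with a negative r (1 reported) and none differed in spread (2 at 24 °C and 1 at 16 °C reported), where the whole table gave 4 and 0 probes. The larger spread at 24 °C was called for 1 member with arrays scaled and for 1 at a threshold of 0.01. Over the whole table this call fell from 1421 probes to 605 with arrays scaled and to 572 at 0.01. Scaling also raised the probes with more spread at 16 °C from 698 to 1339. The mean ratio at 16 °C was off 0 in 2 members with arrays scaled, 0 without recurring strains and 0 at 0.01 (1 reported), and at 24 °C in 3 at 0.01 (6 reported). Over all probes these counts were 1173, 888 and 601 at 16 °C (1197 reported) and 1544 at 24 °C (3341 reported). With the score of the other temperature, 0 members followed the sperm score at either temperature (1 and 3 reported), the furrow collagen score at 16 °C (1) or the muscle score at 24 °C (1), and r became 0.110 for cyc-2.2 at 16 °C and turned to -0.08939 for cyc-2.2 at 24 °C, -0.08963 for cox-15 at 16 °C and -0.141 for sdha-1 at 24 °C. The scores themselves were nearly unrelated between the temperatures (r from -0.127 to 0.0385). Without recurring strains or at 0.01, 0 members followed the furrow collagen score at 16 °C or the muscle score at 24 °C. With principal component scores 2 followed the muscle score at 16 °C (0 reported) and 2 at 24 °C (1 reported). Of the paralogue pairs at 16 °C, 0 passed without recurring strains and 2 with principal components removed (1 reported), where r of cyc-2.1 and cyc-2.2 at 24 °C turned to 0.185. The cause of these changes was not tested.

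Leaving out each pair or array gave 0 to 1 repeatable members with negative r and 0 with positive r, 1 to 3 with more spread at 24 °C and 1 at 16 °C. The members following the sperm score numbered 1 at 16 °C and 1 to 4 at 24 °C, those following the furrow collagen score at 16 °C 1, and those following the muscle score at 24 °C 0 to 1. The array numbers in the labels differ between the temperatures, so arrays were matched by the names of their strains. Signal over background is unknown.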
